A study of Mus musculus with 14 samples.

Results

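The EGFR family was followed through its 4 receptor genes (*Egfr*, *Erbb2*, *Erbb3* and *Erbb4*) and 6 genes of its ligands (*Egf*, *Tgfa*, *Ereg*, *Hbegf*, *Btc* and *Nrg1*) in mouse mammary tumors. These 10 genes were taken by symbol, without use of their values, and all of them were found among the 56414 genes of the expression table. The symbol *Erbb2* labels 2 rows of the table, and the row with the higher mean was used.

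Bulk RNA-seq was performed on polyA RNA of 14 mammary tumors of C57Bl/6 mice, with 1 library per tumor. M/D-driven tumors (4 untreated, 4 NAM-treated) arose in female mice that were implanted at 6 to 9 weeks of age with a 50 mg pellet of medroxyprogesterone acetate (MPA, a progestin) and were then gavaged with the carcinogen 7,12-dimethylbenz[a]anthracene (DMBA), so that untreated tumors carried both agents too. AT3 tumors (3 untreated, 3 NAM-treated) grew from cells of the AT3 mouse mammary carcinoma line injected under the skin, and thus all derive from 1 cell line, in female hosts for which only the age range of all mice of the study is given. In both models, animals entered their treatment group when tumors reached 0.25 cm2, and treated animals drank water with 0.5% nicotinamide (NAM, an amide form of vitamin B3 and a precursor of NAD) for 10 days. By the labels, experiment 1 gave 7 of the 8 M/D-driven tumors, experiment 2 gave NAM-treated M/D tumor 1 alone, and experiment 3 gave the 6 AT3 tumors. Nothing in the labels says that every tumor came from its own mouse, so p-values measure the spread between these tumors. No engineered allele is named for any group.

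The receptors of this family are tyrosine kinases that work in pairs. A ligand, released from a membrane-bound precursor by sheddases of the ADAM family, brings receptors together, and their phosphorylated tails engage adaptors that feed the RAS to ERK cascade and PI3 kinase. ERBB2 has no known ligand of its own and ERBB3 has a weak kinase, so that both act mainly within heterodimers. In the mammary gland the family drives duct growth and milk-producing differentiation, and amphiregulin, another of its ligands, lies downstream of the estrogen receptor.

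The expression table gives reads counted per gene and divided by a size factor per tumor, called normalized counts here. Whole reads were recovered from these values and amounted to 40936868 to 84178009 per tumor. Levels of different genes are compared only as reads per kilobase of the longest transcript, scaled to the total reads of the tumor (RPKM), whereas all other values are normalized counts. The epithelial markers *Epcam* and *Krt8* were present in all 14 tumors. NAM-treated M/D tumor 1 stood apart, as it had the lowest normalized count of the 8 M/D-driven tumors for 12 of 12 luminal and 6 of 6 basal markers. The summed level of the luminal markers was 78.7 RPKM in this tumor, against 874 to 3618 RPKM in the 7 others. Its basal markers summed to 47.4 RPKM, against 2217 to 9235 RPKM, and its leukocyte markers to 1433 RPKM, against 112 to 242 RPKM, although 6 of the 11 leukocyte markers had their lowest normalized count there and 3 their highest. *Epcam* had a normalized count of 932 and *Krt8* of 1038 in this tumor. Results of NAM in M/D-driven tumors are therefore given with and without it, and leaving it out leaves the tumors of experiment 1 only.

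In untreated M/D-driven tumors, *Erbb2* was the receptor gene with most RPKM, at 13.6 ± 1.28 (SD, n = 4). *Erbb3* followed at 9.3 ± 3.25 RPKM (SD, n = 4), and the ranges of these genes overlapped (11.7 to 14.4 RPKM for *Erbb2*, 5.62 to 13.5 RPKM for *Erbb3*). *Egfr* stood lower, at 4.61 ± 0.668 RPKM (SD, n = 4), with a highest tumor at 5.04 RPKM that did not reach the lowest tumor for *Erbb3*. *Erbb4* was close to 0, with 0.0875 ± 0.127 RPKM (SD, n = 4). In untreated AT3 tumors the order of the receptors differed, as *Erbb2* (2.47 to 7.9 RPKM) and *Egfr* (2.32 to 4.07 RPKM) overlapped, whereas *Erbb3* (0.353 to 1.01 RPKM) lay below both. *Erbb4* reached at most 0.0076 RPKM in untreated AT3 tumors.

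Among the 6 ligand members in untreated M/D-driven tumors, *Tgfa* had the highest mean, 25.1 ± 15 RPKM (SD, n = 4). *Hbegf* (8.86 ± 7.7 RPKM, SD, n = 4) and *Ereg* (8.26 ± 8.45 RPKM, SD, n = 4) were spread too widely among tumors to be ranked. *Btc* was steadier, at 4.25 ± 1.19 RPKM (SD, n = 4), and *Nrg1* (0.786 ± 0.545 RPKM) and *Egf* (0.178 ± 0.117 RPKM) were the lowest. In untreated AT3 tumors *Tgfa* again led these 6 ligands, at 4.6 ± 1.4 RPKM (SD, n = 3), followed by *Hbegf* at 1.21 ± 0.289 RPKM (SD, n = 3). There the ranges of *Btc* (0.25 to 0.73 RPKM) and *Nrg1* (0.308 to 0.55 RPKM) overlapped, *Egf* did not exceed 0.239 RPKM, and *Ereg* was near 0. Ligands outside the members had higher means, namely *Areg* in untreated M/D-driven tumors (35.8 ± 36.2 RPKM, SD, n = 4) and *Nrg2* in untreated AT3 tumors (14.3 ± 3.43 RPKM, SD, n = 3). The mean of *Areg* rested on untreated M/D tumor 2 (87.9 RPKM, against 6.70 RPKM for *Tgfa*). In untreated M/D tumors 1, 3 and 4 *Areg* lay below *Tgfa* (6.23, 18.1 and 30.9 RPKM, against 19.2, 39.0 and 35.4 RPKM).

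**Figure D1:**
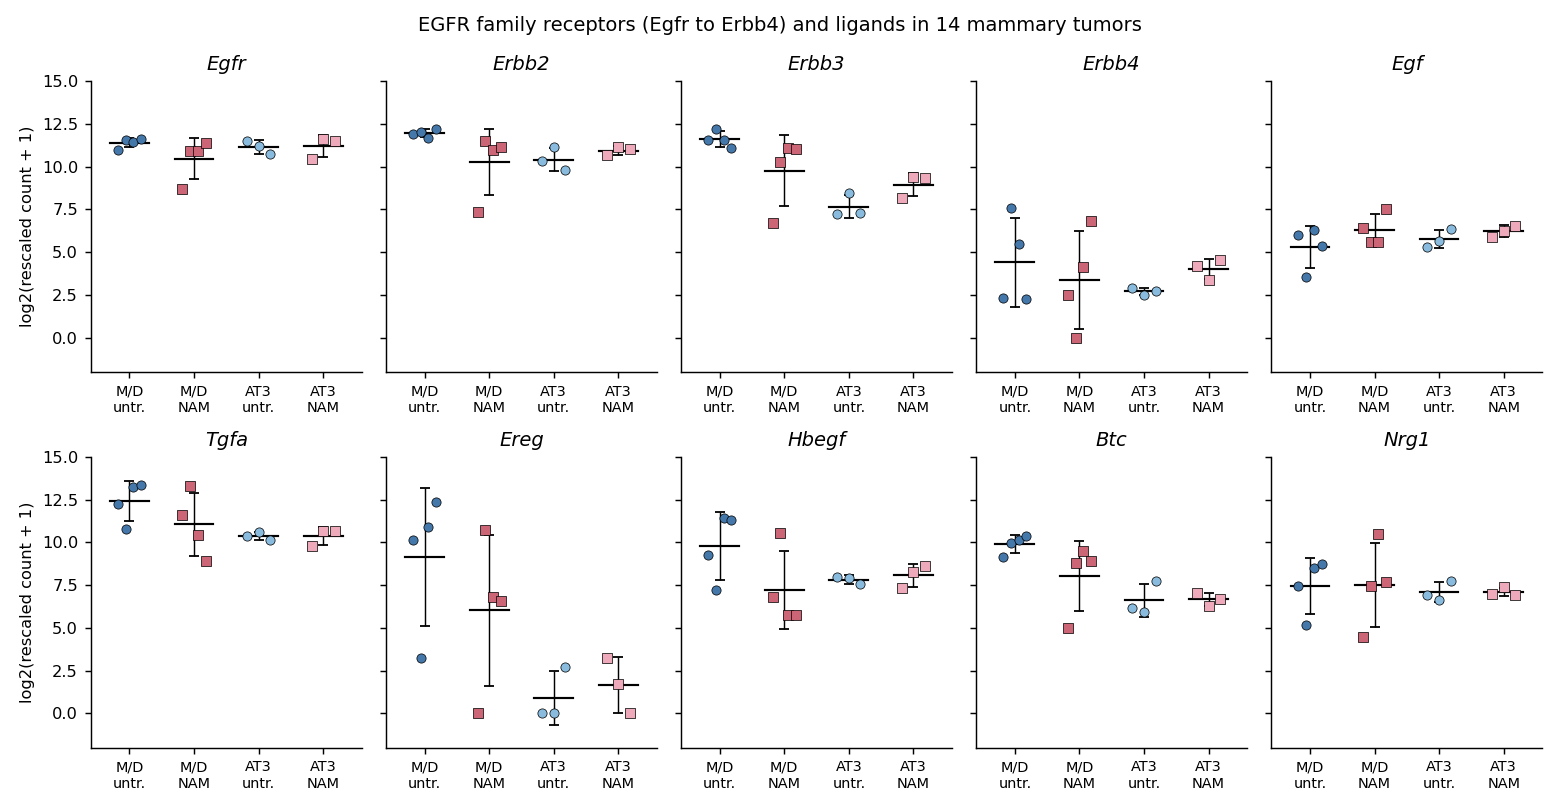
Level of each EGFR family gene in the 14 tumors, as log2(rescaled count + 1), where values were rescaled over both models so that they share 1 axis. Points are tumors of the 4 groups named on the horizontal axis (untr. stands for untreated), horizontal lines are group means and bars are 1 SD; Erbb3 and Btc sit higher in untreated M/D-driven than in AT3 tumors, and Ereg spans its whole range within M/D-driven tumors.

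The sequence before the transcription start is shown for *Egfr*, *Erbb2* and *Tgfa*, which are abundant members. In the comparison of untreated M/D-driven and AT3 tumors given below, *Erbb2* and *Tgfa* were called and *Egfr* was not. With a trend in transcript length and GC content removed, *Egfr* was called and *Erbb2* and *Tgfa* were not. Sequences come from RefSeq on GRCm38.p6, each being the 250 bases before the start, and such a sequence was matched for 6 of the 10 members (*Egfr*, *Erbb2*, *Erbb4*, *Egf*, *Tgfa* and *Btc*). Capitals mark a GC box, searched for as GGGCGG on both strands and held by 32.7% of the 32851 sequences of the same length.
*Egfr*, chr11:16751953-16752202, plus strand: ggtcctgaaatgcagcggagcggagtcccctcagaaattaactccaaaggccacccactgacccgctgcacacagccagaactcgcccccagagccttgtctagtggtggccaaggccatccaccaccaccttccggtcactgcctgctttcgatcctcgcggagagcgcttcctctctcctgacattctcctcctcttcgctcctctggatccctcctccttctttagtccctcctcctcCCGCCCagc
*Erbb2*, chr11:98412234-98412483, plus strand: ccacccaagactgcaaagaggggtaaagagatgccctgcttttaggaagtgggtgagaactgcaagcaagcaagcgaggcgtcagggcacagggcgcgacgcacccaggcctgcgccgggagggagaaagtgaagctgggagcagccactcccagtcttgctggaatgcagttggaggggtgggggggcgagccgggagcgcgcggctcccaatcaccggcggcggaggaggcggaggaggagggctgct
*Tgfa*, chr6:86194972-86195221, plus strand: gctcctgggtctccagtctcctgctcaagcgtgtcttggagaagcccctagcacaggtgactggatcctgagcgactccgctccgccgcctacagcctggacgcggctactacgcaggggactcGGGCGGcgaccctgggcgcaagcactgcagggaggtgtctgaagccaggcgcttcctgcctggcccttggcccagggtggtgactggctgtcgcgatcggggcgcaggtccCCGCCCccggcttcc
*Egfr* holds 1 GC box, *Tgfa* holds 2, and *Erbb2* holds none within this window. The letters of a TATA box (TATAAA, in 12.4% of all such sequences) and of an AP-1 site (TGANTCA, in 6.75%), which do not overlap the GC box, were not found in these 3 windows on either strand. The GC content of the windows was 60.8% for *Egfr*, 66% for *Erbb2* and 69.2% for *Tgfa*, against a median of 52.4% over all such sequences.

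The first comparison asked how the family differed between M/D-driven and AT3 tumors that had received no NAM. Of the 10 genes, 5 were higher in untreated M/D-driven tumors, namely *Erbb2*, *Erbb3*, *Tgfa*, *Ereg* and *Btc*, and none was lower. Values of both models were rescaled together for this purpose, and limma called 50.4% of the 21650 genes tested (30.4% higher, 20.0% lower). A call asked for an adjusted p within 0.05 and a fold change reaching 1.5. The values of the models did not overlap for 53.9% of all genes (31.4% higher and 22.5% lower in M/D-driven tumors), and for 5 members, the same 5 as were called. The median log2 difference was 1.62 over the 4 receptors and 2.00 over the 6 ligands, against 0.22 over all genes tested. The model goes with the experiment number, and with an induced against a transplanted tumor, so these cannot be told apart. As tumors were sequenced in bulk, fewer cells of a type and less RNA per cell cannot be told apart either.

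*Erbb3* encodes a receptor of neuregulins that signals through PI3 kinase, and showed the largest difference among the receptors (mm10 chromosome 10, 128567530 to 128589652, minus strand, GSMG0004774). Its rescaled counts were 3043, 4769, 2952 and 2172 in untreated M/D-driven tumors. They were 150.5, 344 and 155 in untreated AT3 tumors, so that the lowest M/D-driven tumor lay far above the highest AT3 tumor. The log2 difference was 3.95 (standard error 0.36, limma adjusted p = 0.00014), a 15.4-fold difference in level. Reads of *Mir6917* cannot be told apart from those of *Erbb3*, as the table joins both in 1 row.

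*Erbb2*, the preferred partner of the other receptors, lies on mm10 chromosome 11 (98412484 to 98437716, plus strand, GSMG0005881). Its rescaled counts were 3876, 4189, 3244 and 4649 in untreated M/D-driven tumors and 1291, 2239 and 879 in untreated AT3 tumors. The groups did not overlap, and the log2 difference was 1.53 (standard error 0.31, limma adjusted p = 0.0038). The row touches *Mien1* on the opposite strand at its end and a smaller row also labelled *Erbb2*, which held 6.93 to 22.4% of the normalized count of the main row. Of the 10 neighbors of *Erbb2* tested from a list of 11, 4 were higher and 2 lower in untreated M/D-driven tumors. They include *Ppp1r1b*, a phosphatase inhibitor (log2 difference 5.25), and the kinase gene *Cdk12* (1.56) as higher, and *Mien1* as lower (−1.90, standard error 0.33).

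*Egfr*, the receptor of EGF, transforming growth factor alpha and amphiregulin, had similar counts in both models (mm10 chromosome 11, 16752201 to 16913907, plus strand, GSMG0004899). Rescaled counts were 2041, 3015, 2821 and 3120 in untreated M/D-driven and 2938, 2326 and 1681 in untreated AT3 tumors. The groups overlapped and the log2 difference of 0.27 (standard error 0.24, limma adjusted p = 0.38) was near that of the median gene. *Egfr* spans *Egfros*, an antisense row with a normalized count of up to 430, and the strand setting of the counting is not given in the sources used here.

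*Erbb4*, a second neuregulin receptor, known for its part in milk production, was detected at few reads (mm10 chromosome 1, 68032186 to 69108060, minus strand, GSMG0001693). Rescaled counts were 4.03, 192, 44.3 and 3.81 in untreated M/D-driven tumors, and 6.47, 4.65 and 5.65 in untreated AT3 tumors. A pair of M/D-driven tumors held all of the higher values while the other two lay at the level of AT3 tumors. The log2 difference was 1.71 with a standard error of 1.27 (limma adjusted p = 0.28), and DESeq2 called it (3.27, adjusted p = 0.019).

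*Btc* encodes betacellulin, which binds both EGFR and ERBB4, and was the steadiest of the ligand differences (mm10 chromosome 5, 91357261 to 91402995, minus strand, GSMG0030723). Rescaled counts were 567, 1009, 1132 and 1313 in untreated M/D-driven and 71.2, 60.4 and 209 in untreated AT3 tumors. The groups were apart, with a log2 difference of 3.30 (standard error 0.47, limma adjusted p = 0.00085). *Tgfa*, which encodes transforming growth factor alpha, was also higher (mm10 chromosome 6, 86195223 to 86275743, plus strand, GSMG0032151). Its rescaled counts of 4807, 1775, 9751 and 10294 in untreated M/D-driven tumors all exceeded the 1340, 1577 and 1114 of untreated AT3 tumors. The log2 difference was 2.02 (standard error 0.56, limma adjusted p = 0.016), although untreated M/D tumor 2 lay close to AT3 tumors. The call was lost without untreated AT3 tumor 1 (2.03, limma adjusted p = 0.054) or 3 (1.90, adjusted p = 0.061).

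*Ereg* encodes epiregulin (mm10 chromosome 5, 91074617 to 91093649, plus strand, GSMG0029412), and was nearly silent in AT3 tumors. Its rescaled counts were 1104, 8.53, 1896 and 5265 in untreated M/D-driven tumors. In untreated AT3 tumors it was at 0 in tumors 1 and 2 and at 5.65 in tumor 3, where 6 reads were counted. A count of 0 allows a normalized count of up to 4.35 and 3.05 in these AT3 tumors if 3 reads are taken as the limit, counting error only. The fitted log2 difference of 8.24 (standard error 1.94, limma adjusted p = 0.0080) depends on the pseudocount at such low counts.

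The 3 other ligands did not pass the test. *Hbegf*, which encodes heparin-binding EGF-like growth factor (chromosome 18, GSMG0018854), had rescaled counts of 617, 148, 2705 and 2551 in untreated M/D-driven and 254, 243 and 187 in untreated AT3 tumors. Only M/D tumor 2 lay below the AT3 tumors, and the log2 difference was 1.98 (standard error 0.91, limma adjusted p = 0.099). It was called without that tumor (2.84, limma adjusted p = 0.0022), and over all 7 tumors by edgeR (2.63) and DESeq2 (2.54). *Nrg1*, the neuregulin gene (mm10 chromosome 8, 31817756 to 32009493, minus strand, GSMG0038251), had a log2 difference of 0.39 (standard error 0.81, limma adjusted p = 0.71). *Egf* itself (mm10 chromosome 3, 129677575 to 129755322, minus strand, GSMG0026055) was at 10.7 to 79.1 in untreated M/D-driven and at 38.8 to 80.9 in untreated AT3 tumors, with overlapping values (limma adjusted p = 0.60).

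The difference between the models also varied with transcript length across genes (Spearman rho 0.315 over the tested genes with a known length, a description since genes are not independent). When the trend of each tumor with length and GC content was removed, the median of all genes moved from 0.22 to −0.34 and 53.1% of genes were called, 36.7% of these as higher against 60.3% without the correction. *Erbb3* (log2 difference 2.55), *Btc* (3.07) and *Ereg* (7.87) were still called higher. *Erbb2* (0.21, limma adjusted p = 0.40) and *Tgfa* (0.92, adjusted p = 0.18) were not, and *Egfr* turned to −1.20 (standard error 0.28, limma adjusted p = 0.0073), lower in M/D-driven tumors. The direction of *Egfr* thus depends on this correction. In NAM-treated tumors, the same comparison of models called 8.03% of genes and none of the 10 members, with log2 differences of 0.82 for *Erbb3* and −0.69 for *Erbb2*. That comparison included NAM-treated M/D tumor 1, which was low in epithelial markers, and was not run without it. The rescaled count of *Erbb3* was 104 in that tumor, against 1237 to 2160 in the other NAM-treated M/D-driven tumors.

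**Figure D2:**
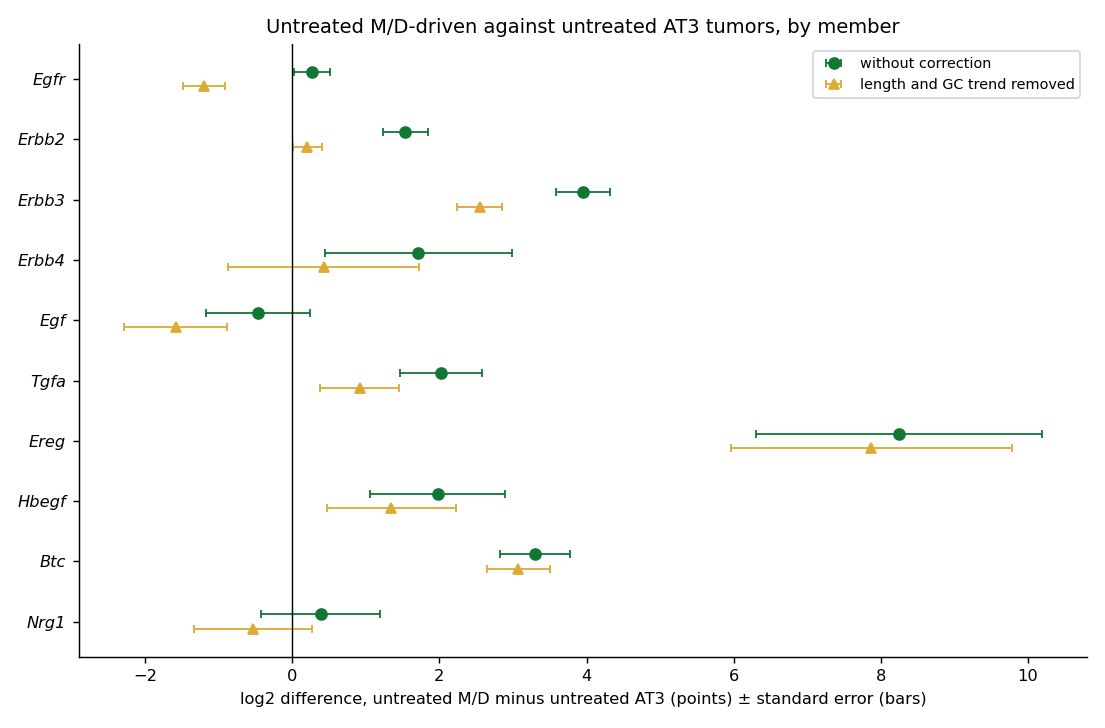
Log2 difference of each member between untreated M/D-driven and untreated AT3 tumors (horizontal axis, points) with its standard error (bars), without correction and with the trend of each tumor with transcript length and GC content removed. Erbb3, Ereg and Btc lie right of 0 in both, whereas Egfr passes from 0.27 to −1.20.

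The other ligands of the family differed strongly between the models. Of the 4 tested from a list of 5, 3 were higher in untreated M/D-driven tumors (*Nrg4*, *Epgn* and *Areg*) and 1 was lower (*Nrg2*). *Nrg4* encodes a ligand of ERBB4 and had a log2 difference of 5.93 (standard error 0.93, limma adjusted p = 0.0013). *Epgn*, which encodes epigen, was 5.54 higher (standard error 1.37, limma adjusted p = 0.010), and *Areg*, which encodes amphiregulin, was 3.19 higher, both on the log2 scale. *Nrg2*, another neuregulin gene, was the reverse, with normalized counts of 116, 1479, 167 and 196 in untreated M/D-driven tumors against 2282, 2743 and 2413 in untreated AT3 tumors (log2 difference −3.40 on rescaled values, standard error 0.77, limma adjusted p = 0.0066). *Nrg3* was at 0 to 4.83 in all 14 tumors and was not tested.

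Over the 53 sheddase, inhibitor, adaptor, cascade and ERK-induced genes tested, 23 were higher and 5 lower in untreated M/D-driven tumors. The 52.8% called was near the 50.4% of all genes (30.4% higher, 20.0% lower). Of 4 sheddases and partners, 3 were higher, led by *Adam10* (log2 difference 2.06) and *Adam17* (1.84), the proteases that release most ligands of the family. Of 14 adaptors and proximal enzymes, 10 were higher and none was lower, with a median of 1.10, led by the phosphatase gene *Ptpn11* (2.00), and by *Gab2* (3.29) and *Gab1* (2.44), which encode docking proteins. Of 9 inhibitors and degraders of the receptors, 5 were higher, such as *Cbl*, a ubiquitin ligase of EGFR (3.40), and *Lrig3* (2.22), while *Errfi1*, which encodes a feedback inhibitor of EGFR, was lower (−1.14, standard error 0.20). These counts moved when the trend in length and GC content was removed, with 2 sheddases higher and 1 lower, 4 adaptors higher and 1 lower, and 2 inhibitors higher and 3 lower.

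Of 10 genes of the RAS to ERK cascade 2 were higher in untreated M/D-driven tumors, *Mapk3*, which encodes ERK1 (log2 difference 1.00), and *Braf* (0.87), and none was lower. Of 16 ERK-induced genes tested from a list of 17, 3 were higher and 4 were lower in untreated M/D-driven tumors, with a median of 0.15. The lower ones included *Phlda1* (−1.83) and *Ier3* (−1.68), and *Ccnd1*, the cyclin D1 gene, was higher (1.45). With the trend removed, no cascade or ERK-induced gene was higher, while 4 of 10 and 7 of 16 were lower. Markers of other cells differed as well, since 8 of 12 luminal, 6 of 6 basal, 7 of 11 leukocyte, 6 of 7 macrophage, 4 of 7 fibroblast, 4 of 5 endothelial and 5 of 5 adipocyte markers were higher in untreated M/D-driven tumors and none was lower. Luminal markers summed to 874 to 3618 RPKM in untreated M/D-driven and 586 to 760 RPKM in untreated AT3 tumors, and basal markers to 2394 to 9235 and 224 to 490 RPKM. The part of cell composition in the results above was not tested. Of the hormone receptors and luminal factors 3 of 5 were higher, namely *Gata3* (3.78), *Esr1* (6.12) and *Pgr* (3.46), and of the muscle and nerve markers 1 of 6, *Sox10* (7.99).

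The second comparison asked whether NAM altered the family in M/D-driven tumors. No member passed the thresholds (the limits of the study, a p within 0.05 and a 1.5-fold change, with p taken here as unadjusted), which were passed by 6.22% of the 21700 genes tested (3.03% higher, 3.19% lower). At an adjusted p within 0.05, limma called 1 gene (0.00461%), which is no member, edgeR none and DESeq2 179 genes. Point estimates were below 0 for 8 of the 10 members, with a median log2 fold change of −1.33 over the receptors and −1.57 over the ligands, against 0.01 over all genes. Treated and untreated values were fully apart for *Erbb2* and *Erbb3*, which were lower in all 4 NAM-treated tumors. Such a gap was found for 4.43% of all genes, namely 2.00% lower and 2.43% higher with NAM.

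Normalized counts of *Erbb2* were 4000, 4267, 3355 and 4905 in untreated M/D-driven tumors and 178, 3088, 2124 and 2466 in NAM-treated ones. NAM-treated tumor 1 lay far below all others, and even the highest NAM-treated tumor remained below the lowest untreated one. The log2 fold change was −1.65 (standard error 0.83, limma adjusted p = 0.74). Without NAM-treated tumor 1, the fold change was smaller and its error much smaller still (−0.69, standard error 0.20, limma adjusted p = 0.81).

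Normalized counts of *Erbb3* were 3140, 4858, 3053 and 2292 in untreated and 113, 1301, 2254 and 2290 in NAM-treated M/D-driven tumors. Although the groups did not overlap, untreated tumor 4 and NAM-treated tumor 4 were nearly equal. The log2 fold change was −1.78 (standard error 0.90, limma adjusted p = 0.74) over 8 tumors and −0.77 (standard error 0.31, adjusted p = 0.81) without NAM-treated tumor 1.

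*Egfr* had normalized counts of 2107, 3070, 2917 and 3292 in untreated M/D-driven tumors and 442, 2040, 1998 and 2898 in NAM-treated ones. The groups overlapped, and a single low tumor made most of the difference, since the log2 fold change went from −0.89 (standard error 0.54, limma adjusted p = 0.76) to −0.30 (standard error 0.22) without NAM-treated tumor 1. *Erbb4* was at 4.15, 196, 45.8 and 4.02 in untreated and at 5.09, 0, 17.5 and 126 in NAM-treated tumors, with high and low tumors in both groups (limma adjusted p = 0.91). The value of 0 rests on no read, which allows a normalized count of up to 3.65.

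Among the ligands, *Btc* had normalized counts of 585, 1028, 1171 and 1385 in untreated M/D-driven tumors and of 33.1, 457, 751 and 528 in NAM-treated ones. The groups overlapped by a single NAM-treated tumor. The log2 fold change was −1.83 (standard error 0.91, limma adjusted p = 0.74), and −0.81 (standard error 0.34, adjusted p = 0.81) without NAM-treated tumor 1. In that reduced comparison, 3 members (*Erbb2*, *Erbb3* and *Btc*) passed the thresholds as lower, against 2.33% of the 21489 genes tested as lower and 5.17% in all.

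**Figure D3:**
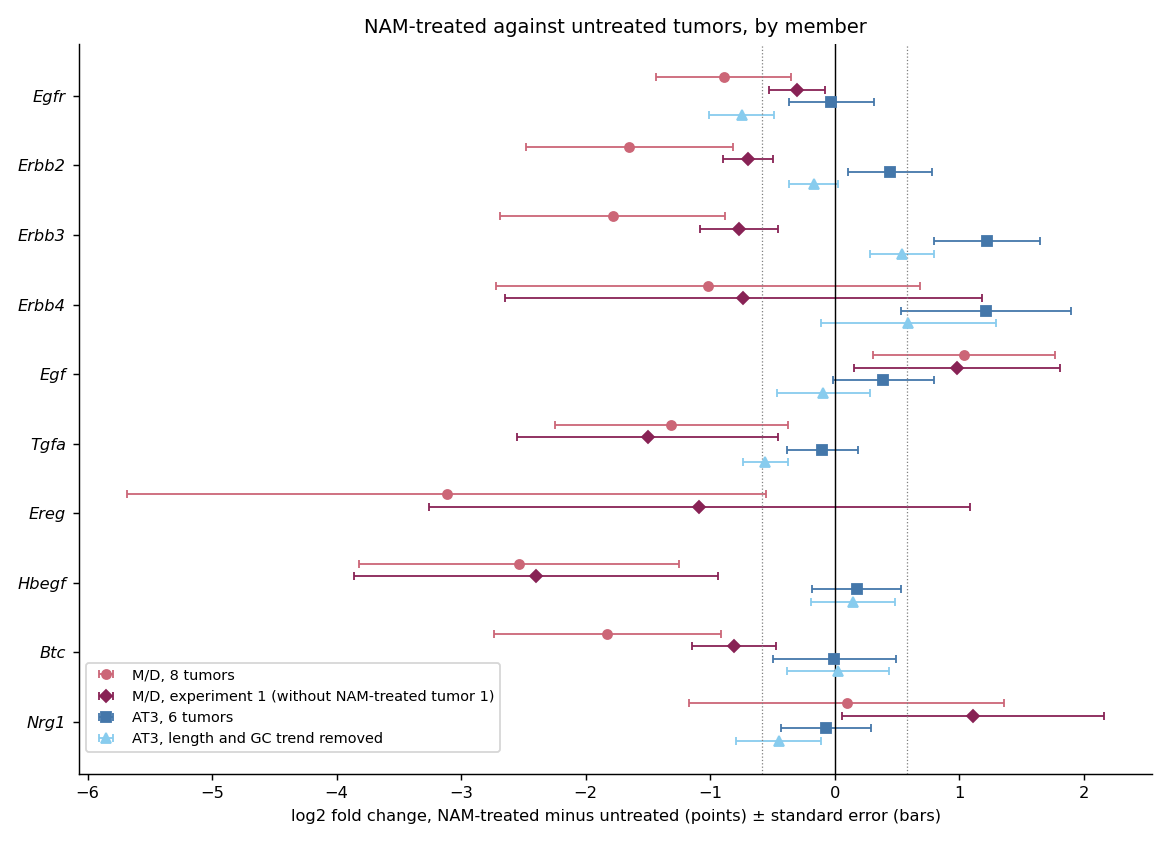
Log2 fold change of each member in NAM-treated against untreated tumors (horizontal axis, points) with its standard error (bars), and dotted lines at a fold change of 1.5 in either direction. In M/D-driven tumors Erbb2, Erbb3 and Btc move toward 0 when NAM-treated tumor 1 is left out (−0.69, −0.77 and −0.81) while their bars shorten, and in AT3 tumors Erbb3 moves from 1.22 to 0.54 when the trend with length and GC content is removed.

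*Tgfa*, *Ereg* and *Hbegf* varied more among the tumors of a group than between the groups. For *Tgfa*, normalized counts were 4960, 1808, 10085 and 10861 in untreated M/D-driven tumors and 3357, 10337, 1432 and 521 in NAM-treated ones. For *Hbegf* they were 637, 151, 2797 and 2692 in untreated tumors and 119, 1566, 56.1 and 59.4 in NAM-treated ones. For *Ereg* they were 1139, 8.69, 1961 and 5555 in untreated tumors and 0, 1739, 118 and 102 in NAM-treated ones. Untreated tumors 1, 3 and 4 and NAM-treated tumor 2 were high for *Ereg* and *Hbegf*, whereas untreated tumor 2 and NAM-treated tumors 1, 3 and 4 were low. Log2 fold changes were −1.31 (standard error 0.93) for *Tgfa*, −2.53 (standard error 1.29) for *Hbegf* and −3.12 (standard error 2.56) for *Ereg*, with limma adjusted p values of 0.79, 0.74 and 0.80. The residual SD of *Ereg* was at the percentile 99.1 of all genes tested, that of *Erbb4* at 96.5, of *Hbegf* at 92.1 and of *Nrg1* at 91.4. Single tumors decided further calls. Without NAM-treated tumor 2, *Hbegf* (log2 fold change −3.63), *Tgfa* (−2.04) and *Erbb2* (−2.06) passed the thresholds as lower, beside 12.4% of all genes. *Hbegf* also passed without untreated tumor 2 (−3.40, beside 7.22% of all genes) and *Btc* without NAM-treated tumor 3 (−2.30, beside 5.64%).

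*Nrg1* and *Egf* did not go down with the other ligands. *Nrg1* had normalized counts of 178, 35.9, 380 and 451 in untreated M/D-driven tumors and 22.9, 181, 1477 and 229 in NAM-treated ones, with NAM-treated tumor 3 above all others. Its log2 fold change was 0.10 (standard error 1.26), and took either sign when single tumors were left out. *Egf* was at 65.4, 10.9, 81.9 and 41.8 in untreated and at 93.4, 49.9, 49.7 and 204 in NAM-treated tumors. The log2 fold change of 1.04 (standard error 0.73, limma adjusted p = 0.79) did not pass the test.

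*Epgn*, *Ereg*, *Areg* and *Btc* lie next to each other on mm10 chromosome 5, at 91027464 to 91035212, 91074617 to 91093649, 91139599 to 91148432 and 91357261 to 91402995. *Epgn* had normalized counts of 876, 34.8, 2072 and 3827 in untreated M/D-driven tumors and 1.70, 2148, 84.7 and 11.2 in NAM-treated ones, and was highest in untreated tumors 1, 3 and 4 and NAM-treated tumor 2, as was *Ereg*. *Areg*, although between *Ereg* and *Btc*, had another pattern, with 431, 6367, 1259 and 2544 in untreated and 5.09, 1070, 11445 and 37.7 in NAM-treated tumors. Its highest values were in untreated tumor 2 and NAM-treated tumor 3, which also had the highest normalized counts of *Pgr*, the progesterone receptor gene (718 and 738, against 6.79 to 315 in the 6 others). *Esr1*, the estrogen receptor gene, did not share this pattern in full. It was highest in NAM-treated tumor 3 (799), but untreated tumor 2 (574) lay below untreated tumor 4 (735) and NAM-treated tumor 1 (672). *Krt17*, a basal keratin gene, had 95747, 11501, 111293 and 124250 in untreated tumors and 120, 64392, 11661 and 21295 in NAM-treated ones. *Krt14* was highest in the same tumors as *Krt17*, but the basal markers *Krt5* and *Trp63* were not. *Krt5* was at 108719 in NAM-treated tumor 4, above 78408 in untreated tumor 1. *Trp63* was at 3281, 3345 and 3121 in NAM-treated tumors 2, 3 and 4. These patterns were noticed in the values and were not tested.

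**Figure D4:**
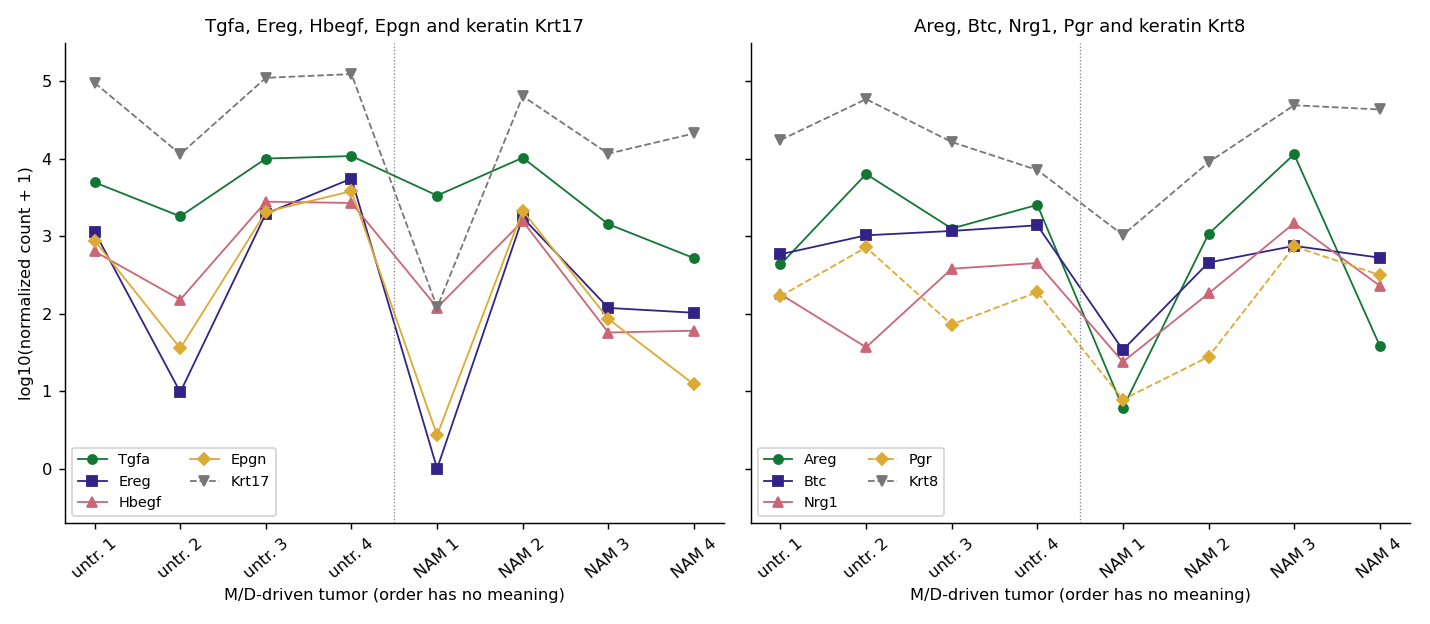
Levels of ligand genes in the 8 M/D-driven tumors, as log10(normalized count + 1), with Tgfa, Ereg, Hbegf, Epgn and the keratin gene Krt17 on the left and Areg, Btc, Nrg1, Pgr and the keratin gene Krt8 on the right. Each line joins the values of a gene, the order of tumors on the horizontal axis has no meaning and untr. stands for untreated; Ereg, Hbegf and Epgn peak in untreated tumors 1, 3 and 4 and in NAM-treated tumor 2, and Areg in untreated tumor 2 and NAM-treated tumor 3.

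Few other genes of the pathway passed the thresholds with NAM in M/D-driven tumors. None of 4 sheddases and partners, 10 cascade genes, 16 ERK-induced genes and 4 other ligands tested did so. Of 14 adaptors and enzymes, 1 was lower (*Pik3cb*, a catalytic subunit of PI3 kinase, log2 fold change −1.24, standard error 0.49, limma adjusted p = 0.73). Of 9 inhibitors 1 was lower (*Lrig3*, −1.30), and of 10 neighbors of *Erbb2* 1 was lower (*Ppp1r1b*, −2.53, standard error 0.84), with the groups apart for both. Medians were between −0.43 (sheddases) and −0.07 (neighbors of *Erbb2*) for these lists except the other ligands (−1.25). No luminal, basal, hormone receptor, leukocyte, macrophage, fibroblast or endothelial marker passed the thresholds, and 1 of 5 adipocyte markers (*Adipoq*, 0.85) and 1 of 6 muscle and nerve markers (*Myh4*, 7.30) were higher with NAM. The median of the 12 luminal markers was −1.33 over 8 tumors, as for the receptors, and −0.23 without NAM-treated tumor 1, when that of the receptors was −0.71. Basal markers had medians of −2.18 and −0.57. Without NAM-treated tumor 1, the receptor median lay between *Erbb2* (−0.69) and *Erbb4* (−0.73, standard error 1.92), with *Egfr* at −0.30. The luminal markers then ranged from −2.43 (*Ovol1*) to 1.01 (*Krt19*), and 1 of 12 was called lower (*Cdh1*, −0.74, standard error 0.21). The part of these cells in the values of the members was not tested.

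The third comparison asked the same of AT3 tumors, in which 23.1% of the 19281 genes tested passed the thresholds (12.2% higher, 10.9% lower). At an adjusted p within 0.05, limma called 1 gene (0.00519%), which is no member, edgeR none and DESeq2 2147 genes. Values of the groups were apart for 22.6% of genes (11.7% higher with NAM). Of the members, 1 passed, *Erbb3*, which was higher with NAM, and *Ereg* was below the filter on low counts. The median log2 fold change was 0.83 over the 4 receptors and −0.00 over the 5 ligands tested, against −0.05 over all genes.

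Normalized counts of *Erbb3* were 135, 301 and 134 in untreated AT3 tumors and 245, 543 and 525 in NAM-treated ones. Untreated tumor 2 lay above NAM-treated tumor 1, so the groups overlapped. The log2 fold change was 1.22 (standard error 0.43, limma adjusted p = 0.17), a 2.34-fold increase. The call was lost without untreated tumor 1, untreated tumor 3, NAM-treated tumor 2 or NAM-treated tumor 3, where log2 fold changes were 1.03, 1.03, 1.03 and 1.05 and limma adjusted p values 0.42, 0.37, 0.49 and 0.55.

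The effect of NAM in AT3 tumors varied with transcript length across all genes (Spearman rho 0.589, against −0.04 in M/D-driven tumors, both descriptions over genes that are not independent). After the trend of each tumor with length and GC content was removed, 15.8% of genes were called. *Erbb3*, with a longest transcript of 6016 bases, then had a log2 fold change of 0.54 (standard error 0.26, limma adjusted p = 0.25) and was not called. *Egfr*, at 10208 bases, went from −0.03 to −0.75 (standard error 0.26, limma adjusted p = 0.17) and was called lower.

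The other receptors did not pass the test in AT3 tumors. *Egfr* was at 2632, 2033 and 1454 in untreated and at 1196, 2595 and 2374 in NAM-treated tumors, with full overlap. *Erbb2* was at 1156, 1957 and 760 in untreated and at 1374, 1846 and 1719 in NAM-treated tumors, where NAM-treated tumors fell within the range of the untreated ones (log2 fold change 0.45, standard error 0.34, limma adjusted p = 0.41). Without untreated tumor 2, *Erbb2* passed the thresholds as higher (0.80), beside 35.7% of all genes. *Erbb4* was at 5.80, 4.06 and 4.88 in untreated and at 14.6, 7.53 and 18.2 in NAM-treated tumors, which were all higher, as for 11.7% of all genes. These values rest on 4 to 22 reads per tumor, and the log2 fold change of 1.22 had a standard error of 0.68 (limma adjusted p = 0.29).

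No ligand passed the test in AT3 tumors, and log2 fold changes lay between −0.10 (*Tgfa*) and 0.39 (*Egf*). *Tgfa* was at 1200, 1378 and 964 in untreated and at 741, 1320 and 1326 in NAM-treated tumors. *Hbegf* was at 228, 212 and 162 in untreated and at 137, 254 and 325 in NAM-treated tumors. *Tgfa* and *Hbegf* thus kept to a narrow range in AT3 tumors, with residual SDs at the percentiles 43.1 and 57.1 of all genes. *Btc* (52.8 to 181 in untreated, 64.0 to 113 in NAM-treated), *Nrg1* (85.3 to 183, 98.3 to 135) and *Egf* (34.8 to 70.0, 49.8 to 76.8) overlapped between groups. *Ereg* was at 0, 0 and 4.88 in untreated and at 7.29, 1.88 and 0 in NAM-treated tumors, from 14 reads over all 6 tumors. The signs of *Egfr* and *Btc*, with fold changes of −0.03 and −0.00, turned with the scaling used.

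Of the pathway around the receptors, 13 of 53 genes tested (24.5%) passed the thresholds in AT3 tumors, which is near the 23.1% of all genes. All 13 were higher with NAM, whereas all genes divided into 12.2% higher and 10.9% lower. *Adam10* and *Adam17* were higher with NAM, from 1367, 1384 and 1225 to 1887, 3294 and 3356 for *Adam10* and from 1210, 1784 and 1370 to 1962, 3381 and 3795 for *Adam17*. The groups did not overlap for either, and log2 fold changes were 1.06 (standard error 0.26) and 1.03 (standard error 0.29), with a limma adjusted p of 0.17 for both. Of 14 adaptors and enzymes 6 were higher and none was lower (median 0.64), led by *Gab2* (1.78), *Ptpn11* (1.38) and *Sos1*, an exchange factor of RAS (1.18). Of 9 inhibitors 1 was higher, *Cbl* (2.07), and of 16 ERK-induced genes 4 were higher and none was lower, led by the gene of the transcription factor ETV5 (1.06) and by *Spred1* (0.82) and *Spred2* (1.25), which encode inhibitors of the cascade. No gene of the cascade itself passed. With the trend in length and GC content removed, 2 of 4 sheddases, 3 of 14 adaptors, 1 of 9 inhibitors and 2 of 16 ERK-induced genes were higher.

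Among the other ligands, *Nrg2* was higher (2282, 2743 and 2413 in untreated, 3356, 4585 and 4267 in NAM-treated AT3 tumors), with groups that did not overlap and a log2 fold change of 0.71 (standard error 0.21, limma adjusted p = 0.17). *Areg* was lower, at 183, 90.4 and 243 in untreated and at 97.2, 71.5 and 82.6 in NAM-treated tumors (−0.93, standard error 0.40, limma adjusted p = 0.20). None of the 3 other ligands tested was called once the trend was removed. Of 9 neighbors of *Erbb2*, *Cdk12* (1.30), *Med1* (0.82) and 1 more were higher and *Mien1* (−1.11) was lower, so that *Mien1* and *Erbb2*, which touch, had opposite signs. After removal of the trend in length and GC content none of the 9 was called, and *Mien1* (−0.42) and *Erbb2* (−0.17) were both below 0. Markers of other cells moved too, since 4 of 5 endothelial, 3 of 7 macrophage, 2 of 7 fibroblast, 1 of 5 hormone receptor and 1 of 6 muscle and nerve markers were higher with NAM, whereas 1 of 5 adipocyte markers (*Fabp4*) was lower. Of 11 leukocyte markers 5 were higher and 2 were lower. Among epithelial markers, 2 of 12 luminal were higher (*Esrp1*, *Cdh1*) and 2 lower, and 1 of 5 basal was higher (*Trp63*) and 2 lower (*Krt17*, *Krt14*). Once the trend was removed, 3 endothelial, 1 macrophage, 2 fibroblast and 1 muscle and nerve marker were higher and 1 adipocyte marker was lower. No hormone receptor or basal marker was then called, 2 leukocyte markers were higher and 1 lower, and 1 luminal marker was higher (*Esrp1*) and 1 lower. Leukocyte markers summed to 13.3 to 23.8 RPKM in untreated and 37.0 to 48.7 RPKM in NAM-treated AT3 tumors, and luminal markers to 586 to 760 and 696 to 738 RPKM. The part of these cells in the change of *Erbb3* was not tested.

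The last comparison tested whether the effect of NAM differed between models, with an interaction term over the 14 tumors. Of the 10 members, 1 passed the thresholds, *Erbb3*, as did 14.9% of the 22710 genes tested (7.90% higher, 6.97% lower). Its effect was 3.00 log2 units higher in AT3 than in M/D-driven tumors (standard error 1.17, limma adjusted p = 0.28), being 1.22 in the former and −1.78 in the latter. The difference was 1.99 without NAM-treated M/D tumor 1, and 2.23 (limma adjusted p = 0.46) with the trend in length and GC content removed, which lost the call. For *Erbb2* the difference was 2.10 (standard error 1.05, limma adjusted p = 0.36). It passed the thresholds without NAM-treated M/D tumor 1 (1.14), 2 (2.51) or 4 (2.4), beside 16.86%, 16.65% and 17.32% of all genes. *Hbegf* (2.71, standard error 1.59) passed without untreated M/D tumor 2 (3.58) or NAM-treated M/D tumor 2 (3.81), beside 15.43% and 16.65% of all genes. No gene of the whole table passed an adjusted p of 0.05 by limma or by edgeR, beside 3387 and 3651 genes with an unadjusted p within 0.05.

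All 4 receptors had an interaction above 0, with a median of 2.16, against −0.04 over all genes tested. For *Egfr* it fell from 0.87 to 0.28 without NAM-treated M/D tumor 1, and to 0.13 under other processing. Of the 6 ligands, 4 were above 0 with a median of 1.52 and none passed. In the rest of the pathway, 14 of 53 genes (26.4%) passed, all as higher in AT3, against 7.90% of all genes as higher and 14.9% in all. These counts carry the trend of AT3 tumors with transcript length, and were not made per list with it removed. Of 4 sheddases and partners 3 passed as higher in AT3, led by *Adam17* (1.48, standard error 0.32, limma adjusted p = 0.18) and *Adam10* (1.39, standard error 0.34, adjusted p = 0.19). Among adaptors 7 of 14 passed in the same direction, led by *Sos2* (1.09), *Ptpn11* (1.55) and *Gab2* (1.87), and 3 of 9 inhibitors did (*Cbl*, *Lrig3* and *Lrig1*). Of 16 ERK-induced genes 1 passed (*Spred2*, 1.43), and of 10 cascade genes and 4 other ligands none did. Among the neighbors of *Erbb2*, *Cdk12* (1.39) and *Pgap3* (0.88) passed as higher and *Mien1* (−1.17) as lower. Of the markers, 1 of 12 luminal (*Cdh1*, 2.86), 2 of 11 leukocyte and 1 of 7 macrophage passed as higher and 1 of 5 adipocyte as lower, and no basal, hormone receptor, fibroblast, endothelial or muscle and nerve marker did. With TMM scaling over all tumors, 65.4% of the calls over all genes were higher in AT3, against 53.2% here.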

How the data were processed

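PolyA RNA of 14 mouse mammary tumors was sequenced as paired-end libraries. The authors mapped reads on mm10 with STAR 2.4.0, counted reads on constitutive regions of the genes of a FAST DB annotation and deposited a signal per gene and tumor, the count divided by a DESeq2 size factor, with each model normalized apart. The strand setting of the counting and the lengths of the constitutive regions are not given in the sources used here. Whole reads were recovered from these values (all within a tolerance of 0.01) and served for RPKM, over the longest transcript of the gene, and for the count tests.

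Members and gene lists were chosen with earlier results of these data known. Values were tested as log2(normalized count + 1), for genes with a mean of at least 10 in a group, with limma 3.58.1 in R 4.3.3 (mean-variance trend), so that fold changes of low genes are understated. NAM was tested within each model and by an interaction term, with calls at an unadjusted p within 0.05 and a 1.5-fold change, limits taken from the study, whose methods do not call p adjusted or unadjusted while its captions give adjusted p values. Models were compared after rescaling by TMM factors over all tumors, with calls at a Benjamini-Hochberg adjusted p within 0.05 and the same fold. Every adjusted p is over all genes tested. For the correction of length and GC content, a spline with 4 degrees of freedom was fitted per tumor over genes with a known length, 53.0% of the table and 85.1%, 85.2% and 84.1% of tested genes for M/D-driven tumors, AT3 tumors and the comparison of models.

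Alternatives were other pseudocounts (0.5, 5), no filter or a minimum of 50, TMM scaling, edgeR 4.0.16 and DESeq2 1.42.0 on recovered reads, a replicate block, this correction, and each tumor left out. All members were named, and from each other list up to 3 genes per comparison, those past the thresholds with the smallest p. Further genes (*Krt17*, *Krt5*, *Krt14*, *Trp63*, *Pgr*, *Esr1*, *Krt8*, *Epcam*, *Ovol1*, *Krt19*) were named for their level or change, or after their values were seen. The leukocyte markers that were lower in AT3 tumors are not named here. The fits were tested on simulated data. Figures were drawn with matplotlib 3.10.9 in Python 3.11.15.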

Additional observations from a re-analysis of the deposited data

Results flagged for a closer look

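In NAM-treated M/D-driven tumors, a single tumor stood apart from the 3 others of its group for 4 members, by a gap beyond the 95% critical value of Dixon's test. *Erbb4* was at 125.9 normalized counts in tumor 4, against 0 to 17.5 in the others. In tumor 2, *Ereg* was at 1739, against 0 to 118, and *Hbegf* at 1566, against 56.1 to 119. *Nrg1* was at 1477 in tumor 3, against 22.9 to 229. Of 20 groups of 4 tumors examined, 4 met this criterion. A chance rate of about 1 in 20 holds for independent values with a normal distribution. Here the counts were not put on a log scale and the groups share the same tumors, so no excess over chance can be read from this number. The effect of NAM on *Erbb3* differed between AT3 and M/D-driven tumors by 3.00 on the log2 scale (standard error 1.17, limma adjusted p = 0.28), the only 1 of 10 such differences among the members that passed the thresholds.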

How the results depend on the processing

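Over 654 recomputed values of members, 586 kept their direction and their side of the thresholds, 34 changed sign, 20 gained a call and 14 lost it. The number of genes called for NAM in M/D-driven tumors was 1350, and 2180 without a filter on low values, 859 with a minimum mean of 50, 2092 by DESeq2 and 784 to 2712 when single tumors were left out. For NAM in AT3 tumors 4458 genes became 2603 with the trend in length and GC content removed, and 1618 to 6765 when single tumors were left out. For the interaction 3377 became 2039 and 1838 to 4574 under the same changes. Between untreated models 10917 genes became 1725 between NAM-treated tumors (M/D tumor 1 included), and 8127 to 11468 when single untreated tumors were left out. In AT3 tumors the effect of NAM changed sign for *Egfr* (0.013 with TMM, 0.041 by edgeR, 0.023 by DESeq2), for *Btc* (0.038 with TMM, 0.028 with the trend removed), for *Erbb2* (−0.17) and for *Egf* (−0.089), the latter both with the trend removed. Between models the trend removed turned *Egfr* (−1.20) and *Nrg1* (−0.53). NAM-treated tumors, M/D tumor 1 included, gave *Egfr* −0.73, *Erbb2* −0.69, *Erbb4* −0.64, *Egf* 0.058 and *Hbegf* −0.86. The cause was not tested.

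When single tumors were left out, log2 fold changes crossed 0 for NAM in M/D-driven tumors in *Erbb4* (−2.19 to 0.14) and *Nrg1* (−0.87 to 1.11). In AT3 tumors they did so for *Egfr* (−0.25 to 0.32), *Tgfa* (−0.24 to 0.18), *Hbegf* (−0.087 to 0.53), *Btc* (−0.34 to 0.54) and *Nrg1* (−0.30 to 0.24), for the interaction in *Nrg1* (−1.18 to 0.80), and between models in *Egf* (−0.80 to 0.12) and *Nrg1* (−0.038 to 1.15).

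Replicate numbers were not used to pair tumors in the main tests. Deviations of tumors with the same number correlated at −0.44 to 0.11 in M/D-driven and −0.16 to 0.26 in AT3 tumors. The own number was the best partner for 2 of 8 and 3 of 6 tumors. These few values do not settle whether the numbers pair the tumors. With the number as a replicate block, 1001 genes were called in M/D-driven tumors (*Btc* among them, as lower), 5082 in AT3 tumors, 2959 for the interaction and 8174 between models, where untreated M/D tumor 4 has no partner and *Nrg1* came to −0.038. At a limma adjusted p within 0.05, the block gave 1296 genes for NAM in AT3 tumors, against 1 without it. In M/D-driven tumors it gave 0, against 1.

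Depth limits *Erbb4* and *Ereg* most, the latter with 14 reads over the AT3 tumors. With 3 tumors a group, an exact permutation test of a single gene cannot go below p = 0.1.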
